A study of Drosophila melanogaster with 6 samples.

Results

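The chromosomal passenger complex and the spindle assembly checkpoint were followed in RNA from embryonic mesoderm of Drosophila melanogaster in which the forkhead transcription factor Jumu was overproduced. The passenger complex holds the kinase Aurora B (aurB), its scaffold and activator INCENP (Incenp), Borealin (borr) and the Survivin homologue Deterin (Det). The checkpoint genes were BubR1, Bub1, Bub3, Mps1 and mad2. Members were chosen by symbol: a probe set counted when the platform annotation gave it to exactly 1 gene and that gene was on the list. Of the 9 genes named, 8 had such a probe set, 1 each, among 18769 probe sets tested, which covered 11982 genes with a single-gene probe set. For BubR1 the annotation used lists no probe set of its own, and it was not analysed here.

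The overexpression group carried twi-GAL4 and UAS-2EGFP together with UAS-jumu, and the control group carried twi-GAL4 and UAS-2EGFP alone, with 3 arrays for each genotype. GAL4 under twist control drives GFP, and in the first group Jumu, in cells that express Twist. GFP-positive cells were sorted by fluorescence from suspensions of embryos held at 29 °C until late stage 11 or early stage 12, so groups shared the driver, the reporter and the temperature and differed by the jumu transgene. The labels give no matching transgene for the control, and they do not say whether replicates came from separate embryo collections, so the spread behind each p-value is that between these arrays and may be technical.

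In dividing cells the passenger complex sits at inner centromeres until anaphase and then moves to the central spindle and midzone. At the centromeres Aurora B phosphorylates kinetochore proteins, which releases microtubules that are wrongly attached, and after the move it acts in cytokinesis. The checkpoint works beside it: Mps1 marks kinetochores that lack microtubules, Bub proteins dock there, and Mad2 is turned into a form that holds back the anaphase-promoting complex (APC/C), the ubiquitin ligase that starts anaphase. In the embryonic mesoderm at this age these genes serve the divisions that precede differentiation, among them those of cardiac and muscle progenitors.

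The jumu probe set had quantile-normalised log2 signals of 13.62, 13.35 and 13.69 in the overexpression arrays, against 11.35, 11.56 and 11.44 in controls. It rose 4.31-fold (log2 change 2.11 ± 0.14 SE, limma adjusted p = 0.0165), in the direction of the labels. Log2 signals below are on this quantile-normalised scale, in the order replicate 1, 2 and 3, and a change is the mean of the jumu arrays minus that of the controls. "Rose" and "fell" are used for genes with a limma adjusted p under 0.05 over all 18769 probe sets. By that threshold 1.36% of all probe sets were higher and 1.41% lower. Of mesodermal marker genes 9 of 14 were measured, and 4 rose, 0 fell (1 was lower at an unadjusted p under 0.05) and 1 had a mean log2 signal under 6. Their summed linear signal was 27186 to 27666 in the jumu arrays and 19551 to 20485 in controls. Of 14 measured neural markers 7 fell and 13 had a negative change. Their summed linear signal was 17881 to 18118 in the jumu arrays and 31835 to 32845 in controls. elav, a neuronal RNA-binding protein gene, had a log2 signal of 12.44 and 13.32 in the respective groups, so neural transcripts were present in each sort, while nSyb and brp were under 6 in each group. Of 9 measured epidermal and tracheal markers 3 fell, with summed signals of 11060 to 12680 against 13567 to 14796. Of 9 blood cell markers 2 fell and 0 rose (3 lower and 4 higher at an unadjusted p under 0.05), with a median change of 0.31 and summed signals of 24532 to 25112 against 29295 to 29636. Among the higher ones He had a mean log2 signal of 6.65 against 1.69 in controls and Hml 7.99 against 3.13, with adjusted p = 0.0646 and 0.105 by limma. The part of these shifts in the results below was not tested, and in bulk RNA fewer cells of a type and less RNA per cell cannot be told apart. The gap between 3′ and 5′ probe sets of Act5C, a sign of RNA integrity, overlapped between groups (2.88 to 3.69 log2 units in the jumu arrays and 2.98 to 3.28 in controls).

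Every measured gene of the set was higher on average in the jumu arrays, and 4 of 8 rose: aurB, borr, Det and Bub3. Incenp, Mps1, Bub1 and mad2 did not pass. The 4 calls were lost without any 1 of the 6 arrays (adjusted p 0.0841 to 0.158). So were nearly all calls of the array. Only 0 to 21 of 18769 probe sets were then called higher and 0 or 1 lower, against 255 and 264 with all arrays. The median log2 change over the 8 genes was 0.63, or 1.55-fold, with a range from 0.17 (mad2) to 0.94 (aurB), beside a median of -0.01 over all probe sets. Among all probe sets tested, 1.36% were called higher and 1.41% lower. Calls were more frequent in bright probe sets, and 2.44% of the 4758 with a mean log2 signal over 9 were called higher and 2.35% lower, against 4 of the 7 members over that level. The groups did not overlap, with every jumu array above every control, in 6 of the 8 genes, beside 14.3% of all probe sets and 28.8% of those over 9. An unadjusted p under 0.05 was reached by 6 genes, with 9.6% of all probe sets higher at that level.

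**Figure D1:**
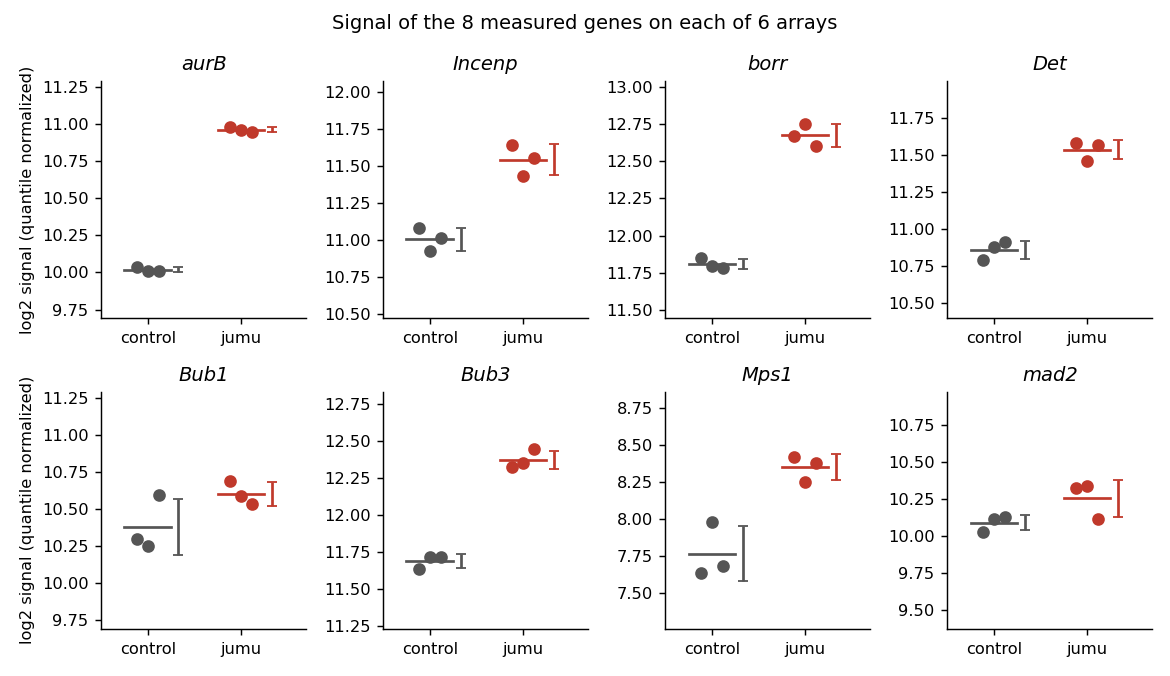
Log2 signal (vertical axis, quantile normalised) of each measured gene on the 3 control arrays (grey) and 3 jumu arrays (red), with replicates 1 to 3 from left to right, group means as lines and ± 1 SD as bars. Each panel spans the same number of log2 units around its own centre. aurB has a mean of 10.02 in controls and 10.96 in jumu arrays with little scatter, whereas Bub1 and mad2 overlap between the groups.

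The passenger complex had 3 of its 4 genes past the threshold and a median log2 change of 0.77 (1.71-fold). Over all probe sets 1.36% were called higher, and 2.44% of those over a log2 signal of 9. aurB, which encodes the complex's kinase, had log2 signals of 10.98, 10.96 and 10.95 in the jumu arrays, against 10.04, 10.01 and 10.01 in controls. The 2 groups were separated by 0.91 log2 units at their nearest arrays. aurB rose 1.92-fold, a log2 change of 0.94 ± 0.09 (SE, 95% interval 0.72 to 1.17, adjusted p = 0.0245). Its replicate SDs were only 0.02 in each group. The SE from its own spread would be 0.014, and limma's moderated SE of 0.086 was set mainly by the spread of other probe sets. Among the 4758 bright probe sets its change stood at the 99.0th percentile.

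borr encodes Borealin, which with Survivin brings the complex to the centromere. Its log2 signals were 12.67, 12.75 and 12.60 in the jumu arrays, against 11.85, 11.80 and 11.78 in controls. The groups stood 0.75 log2 units apart at their nearest arrays. borr rose 1.83-fold, a log2 change of 0.87 ± 0.10 (SE, 95% interval 0.62 to 1.12, adjusted p = 0.0307). Its probe set is of a type that Affymetrix marks as shared by transcripts of the same gene, so it does not separate isoforms.

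Det encodes the Survivin homologue of the complex, the BIR-domain subunit whose human counterpart reads a centromere mark on histone H3. It had log2 signals of 11.58, 11.46 and 11.57 in the jumu arrays, against 10.79, 10.88 and 10.91 in controls. All jumu arrays lay above all controls. Det rose 1.60-fold, by 0.68 ± 0.10 log2 units (SE, 95% interval 0.43 to 0.93, adjusted p = 0.0432).

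Incenp encodes the scaffold whose C-terminal IN box binds and activates Aurora B. It had log2 signals of 11.64, 11.43 and 11.55 in the jumu arrays, against 11.08, 10.93 and 11.01 in controls. The groups again did not overlap, with a gap of 0.35 between nearest arrays. The change of 0.54 ± 0.11 (SE, 95% interval 0.25 to 0.82), or 1.45-fold, did not pass (adjusted p = 0.0838). In an alternative with an intensity trend in limma's variance prior Incenp was past the threshold (adjusted p = 6.5e-06), and its adjusted p over the 24 alternatives lay between 1.49e-06 and 0.347.

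Of the checkpoint genes 1 of 4 measured passed, and the median log2 change was 0.40 (1.32-fold). The share called higher was 1.36% of all probe sets and 2.44% of those over a log2 signal of 9. Bub3 encodes the WD40 protein that carries Bub1 and BubR1 to phosphorylated repeats of the kinetochore scaffold. Its log2 signals were 12.33, 12.35 and 12.44 in the jumu arrays, against 11.63, 11.72 and 11.72 in controls. The groups were 0.61 log2 units apart at their nearest arrays. Bub3 rose 1.61-fold, by 0.68 ± 0.09 (SE, 95% interval 0.44 to 0.93, adjusted p = 0.0408).

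Mps1 encodes the kinase at the top of the checkpoint, known in flies also as ald. It was the dimmest probe set of the set, with log2 signals of 8.42, 8.25 and 8.38 in the jumu arrays, against 7.63, 7.98 and 7.68 in controls. The groups did not overlap, and control replicate 2 was the highest control. The change of 0.58 ± 0.14 (SE, 95% interval 0.23 to 0.94), or 1.50-fold, did not pass (adjusted p = 0.108). Its control SD of 0.19 compares with 0.06 for Det. With the intensity trend its adjusted p was 0.00922, and over the 24 alternatives 0.00455 to 0.379.

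Bub1 encodes a checkpoint kinase whose yeast and human counterparts phosphorylate histone H2A at the centromere. It had log2 signals of 10.69, 10.59 and 10.53 in the jumu arrays, against 10.30, 10.25 and 10.59 in controls. Control replicate 3 lay at the level of the jumu arrays, so the groups overlapped. The change of 0.22 ± 0.14 (SE, 95% interval -0.13 to 0.57) did not pass (adjusted p = 0.462). Without control replicate 3 the change was 0.33 (adjusted p = 0.297), and without it and with the intensity trend the adjusted p was 0.00532. With the trend and any other array left out, limma's adjusted p for Bub1 was 0.0862 to 0.321. With the trend and all arrays it was 0.0829.

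mad2 encodes the protein that, in its closed form, is built into the inhibitor of the APC/C. Its log2 signals were 10.32, 10.34 and 10.11 in the jumu arrays, against 10.03, 10.12 and 10.13 in controls. The third jumu replicate lay among the controls, so the groups overlapped. The change of 0.17 ± 0.11 (SE, 95% interval -0.12 to 0.45), or 1.12-fold, did not pass (adjusted p = 0.506). The upper end of its interval lies below the lower end of the interval for aurB.

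**Figure D2:**
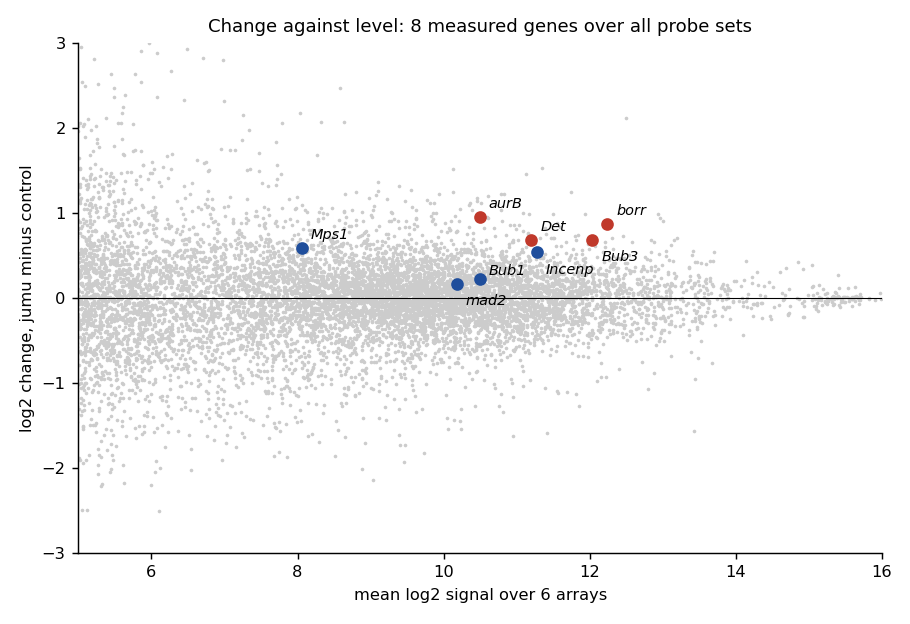
Log2 change, jumu minus control (vertical axis), against the mean log2 signal over the 6 arrays (horizontal axis) for all probe sets (grey), cropped below a log2 signal of 5 and beyond 3 log2 units. The 4 genes that rose are red and the other 4 measured members are blue; aurB (0.94) and borr (0.87) lie at the upper edge of probe sets of their level, and mad2 (0.17) and Bub1 (0.22) lie inside the bulk.

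Whether the genes of a complex changed by the same amount was examined as the difference of 2 log2 signals within each array, which does not depend on scaling an array by a constant. Such a difference between probe sets has no meaning as a level, and only its shift between groups is read. The reference genes, aurB and Bub3, had the largest changes among the measured genes of their groups. Each mean shift is the difference of 2 changes given above, so it was negative by the choice of reference. Only its spread over the arrays is new, and this choice of reference also favours groups without overlap. The share of other pairs without overlap was not computed. Within the passenger complex the signal of Incenp relative to aurB was 0.66, 0.47 and 0.61 in the jumu arrays, against 1.04, 0.92 and 1.00 in controls. The groups did not overlap, and the mean shift was -0.41, so the ratio was 0.753 times that of controls. Det relative to aurB shifted by -0.27, also without overlap (0.57 ± 0.07 against 0.84 ± 0.08, SD, n = 3 each, exact permutation p = 0.1). borr relative to aurB shifted by -0.08, with overlap (1.71 ± 0.07 against 1.79 ± 0.02, SD, n = 3 each, exact permutation p = 0.3).

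Among the checkpoint genes mad2 relative to Bub3 was -2.00, -2.02 and -2.33 in the jumu arrays, against -1.60, -1.60 and -1.59 in controls. That is a shift of -0.52 without overlap. Bub1 relative to Bub3 shifted by -0.46, again without overlap (-1.77 ± 0.14 against -1.31 ± 0.17, SD, n = 3 each, exact permutation p = 0.1). Mps1 relative to Bub3 shifted by -0.10 with overlap (exact permutation p = 0.5). With 3 arrays against 3 the smallest two-sided exact p is 0.1. Adjusted over the 6 pairs, the exact permutation p of the 4 pairs without overlap was 0.15, and a design of this size cannot pass 0.05.

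**Figure D3:**
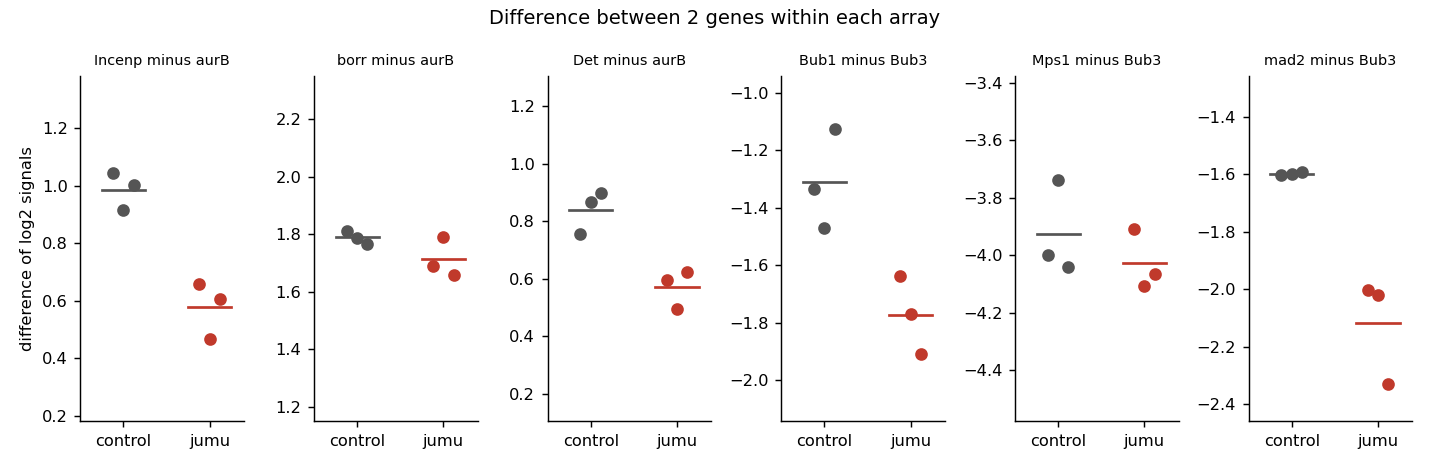
Difference between the log2 signals of 2 genes on the same array (vertical axis) for 3 pairs of the passenger complex and 3 pairs of checkpoint genes, with control arrays in grey, jumu arrays in red and group means as lines. Incenp and Det relative to aurB, and Bub1 and mad2 relative to Bub3, are lower in every jumu array than in every control, and the other 2 pairs overlap. The mean shifts are negative because aurB and Bub3 had the largest changes of their groups. The share of other pairs without overlap was not computed.

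Genes that act with the members were counted from 3 lists. Over all probe sets 1.36% were called higher and 1.41% lower, and 2.44% and 2.35% of those over a log2 signal of 9. The kinetochore platform list holds the outer kinetochore, where checkpoint proteins dock, and the RZZ complex with its partner. Of its 17 symbols 15 were measured, 5 rose and 0 fell; the change was positive in 14, and the list median was 0.77. Spc105R, the fly KNL1 that Bub3 and its partners bind, rose by 0.99 ± 0.12 (SE, adjusted p = 0.0356). Spindly, the dynein adaptor that RZZ recruits, rose by 1.21 ± 0.11 and Ndc80, the microtubule-binding subunit, by 1.17 ± 0.10. Kmn1, a subunit of the same network, rose by 1.12 ± 0.11, and pch2, encoding the AAA ATPase known in other organisms to reopen Mad2, rose by 0.78 ± 0.10. The RZZ gene Zwilch, at 0.77 ± 0.12, did not pass (adjusted p = 0.0502). Mad1, the kinetochore receptor of Mad2, differed by -0.16 ± 0.10 (SE, adjusted p = 0.440), the only negative value of the list, and cmet, a CENP-E kinesin gene, by 0.33 ± 0.15 (adjusted p = 0.337). The median of the neural markers stood at -0.66 in the same arrays. In each of the 3 lists 0 genes were lower at an unadjusted p under 0.05, and without any 1 array 0 genes of them passed in either direction. The fits without 1 array called at most 21 of all 18769 probe sets higher and at most 1 lower.

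The APC/C and anaphase list covers the ligase that the checkpoint holds back and what it destroys. Of its 21 symbols 18 were measured, 4 rose and 0 fell, with a median of 0.35. The share that rose was 22.2%, beside 1.36% of all probe sets and 2.44% of those over a log2 signal of 9. CycB and CycB3, the B-type cyclins that the ligase destroys, rose by 0.65 ± 0.09 and 0.71 ± 0.09 (SE), thr, whose protein is a partner of separase, by 0.75 ± 0.09, and the APC/C subunit gene APC4 by 0.65 ± 0.09. The 2 activators of the APC/C did not pass: fzy, the Cdc20 that Mad2 binds, stood at 0.74 ± 0.12 (adjusted p = 0.0513) on its bright probe set, with its other 2 probe sets near background, and fzr, the Cdh1 homologue, named here after its value was seen, stood at -0.14 ± 0.12 (adjusted p = 0.618). Separase itself, Sse, was at 0.78 ± 0.16 (adjusted p = 0.0863). The APC/C subunit genes Cdc27 (0.10 ± 0.12) and shtd (0.10 ± 0.14) had the largest p of this list among genes over a log2 signal of 6.

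In the list of passenger partners 12 of 16 symbols were measured, 1 rose and 0 fell, with a median of 0.24. That 1 gene is 8.33% of those measured, beside 1.36% of all probe sets and 2.44% of those over a log2 signal of 9. tum, whose RacGAP protein works with Aurora B at the central spindle, rose by 0.88 ± 0.11 (SE, adjusted p = 0.0367). The fly shugoshin gene mei-S332, which guards centromeric cohesion, was at 0.68 ± 0.11 (adjusted p = 0.0507), and Klp10A, a microtubule-depolymerising kinesin, at 0.74 ± 0.18 (adjusted p = 0.115). Haspin, the kinase that writes the histone mark read by Survivin, differed by -0.02 ± 0.09 (adjusted p = 0.938). The PP1 phosphatase genes that oppose Aurora B had small values, with Pp1-87B at 0.25 ± 0.09 (adjusted p = 0.235) and flw at -0.22 ± 0.12 (adjusted p = 0.400), as did the PP1 regulator sds22 at -0.08 ± 0.10 and the PP2A subunit gene wdb at 0.23 ± 0.14. Probe sets of aust, the testis paralogue of borr, and of sub had mean log2 signals under 6 and were not read.

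**Figure D4:**
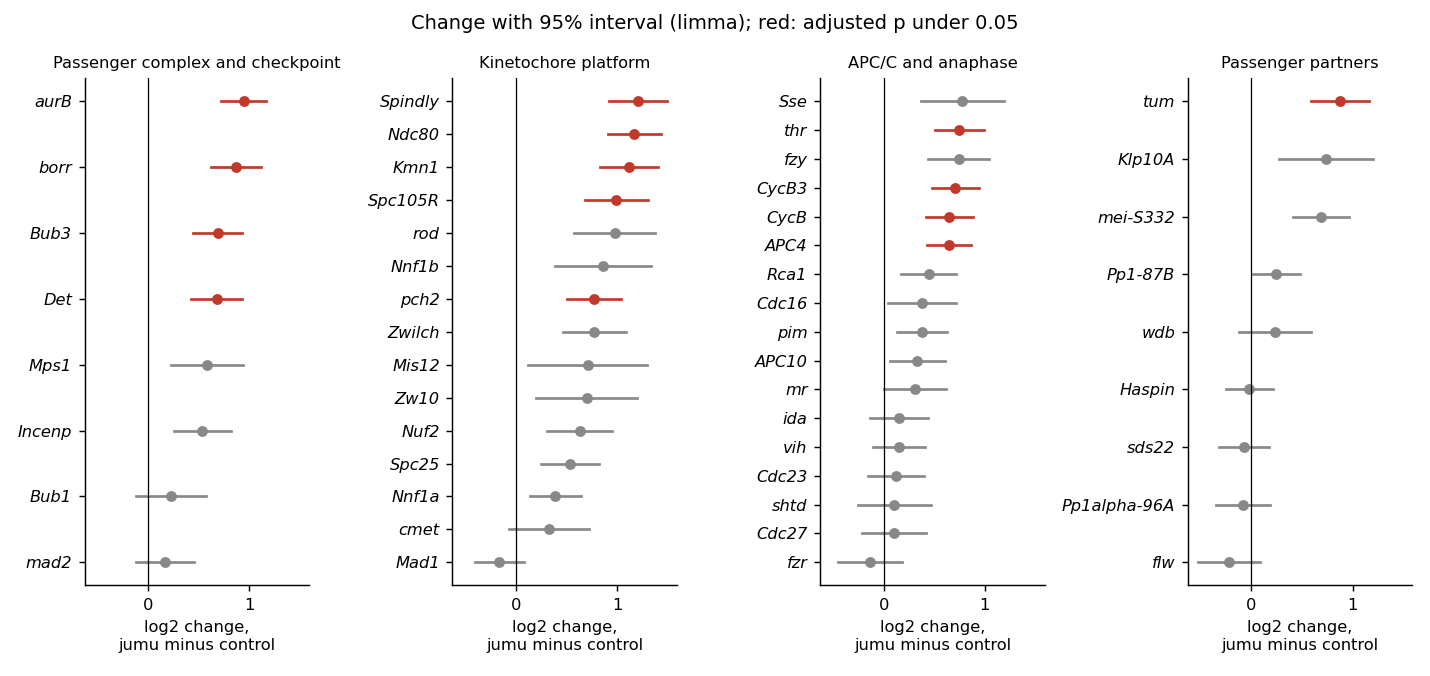
Log2 change, jumu minus control (horizontal axis), with limma's 95% interval for the 8 measured members and for the genes of the 3 lists with a mean log2 signal over 6, red where the adjusted p is under 0.05. Spindly (1.21) and Ndc80 (1.17) have the highest values drawn, and Mad1, fzr and flw, all below 0, are the lowest in their panels.

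The genes whose profile over the 6 arrays lay nearest the mean profile of the 8 members were found among 6456 genes with a mean log2 signal over 6, by the root mean square difference of centred log2 signals. They were msps (0.029 log2 units), Nup188 (0.032), CG5776 (0.033), lncRNA:CR42862 (0.037), CG9135 (0.038) and the gene of heterochromatin protein HP1a (0.039). Their changes ran from 0.54 for the HP1a gene to 0.62 for Nup188. A change close to that of the member mean follows from how these genes were picked, so it is no separate support. Of these, Nup188, CG5776 and lncRNA:CR42862 rose, and msps (adjusted p = 0.0501), CG9135 and the HP1a gene did not pass. Among the members themselves Det (0.058) and Bub3 (0.073) lay nearest that mean, and mad2 (0.22) and Bub1 (0.21) farthest. Each member helped to form that mean.

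The sizes of the 4 called genes moved little when arrays were left out, and their calls were lost. Without any 1 of the 6 arrays aurB differed by 0.94 to 0.95, borr by 0.83 to 0.91, Det by 0.64 to 0.72 and Bub3 by 0.65 to 0.71. The values of genes that did not pass moved more, from 0.16 to 0.33 for Bub1 and from 0.13 to 0.24 for mad2. Calls rest on the same replicate spread, so this contrast is no separate support for them. In each of these 6 fits 0 of the 8 genes had an adjusted p under 0.05, while 6 or 7 had an unadjusted p under 0.05, and the adjusted p of aurB was 0.0841 to 0.114. Over all 18769 probe sets these fits called 0 to 21 higher and 0 or 1 lower. With the intensity trend, which called 8.22% of all probe sets higher and 8.27% lower, 6 of the 8 genes passed with all arrays. With the trend and 1 array left out 5 to 7 passed, while 6.44% to 7.61% of all probe sets were called higher. Changes also depended on the scaling of arrays: spiked-in hybridization controls had deposited log2 signals of 12.74 to 13.08 in the jumu arrays and 13.30 to 13.63 in controls. Scaling to them moved the median of all probe sets to 0.46 and the 8 genes to 0.76 to 1.53.

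**Figure D5:**
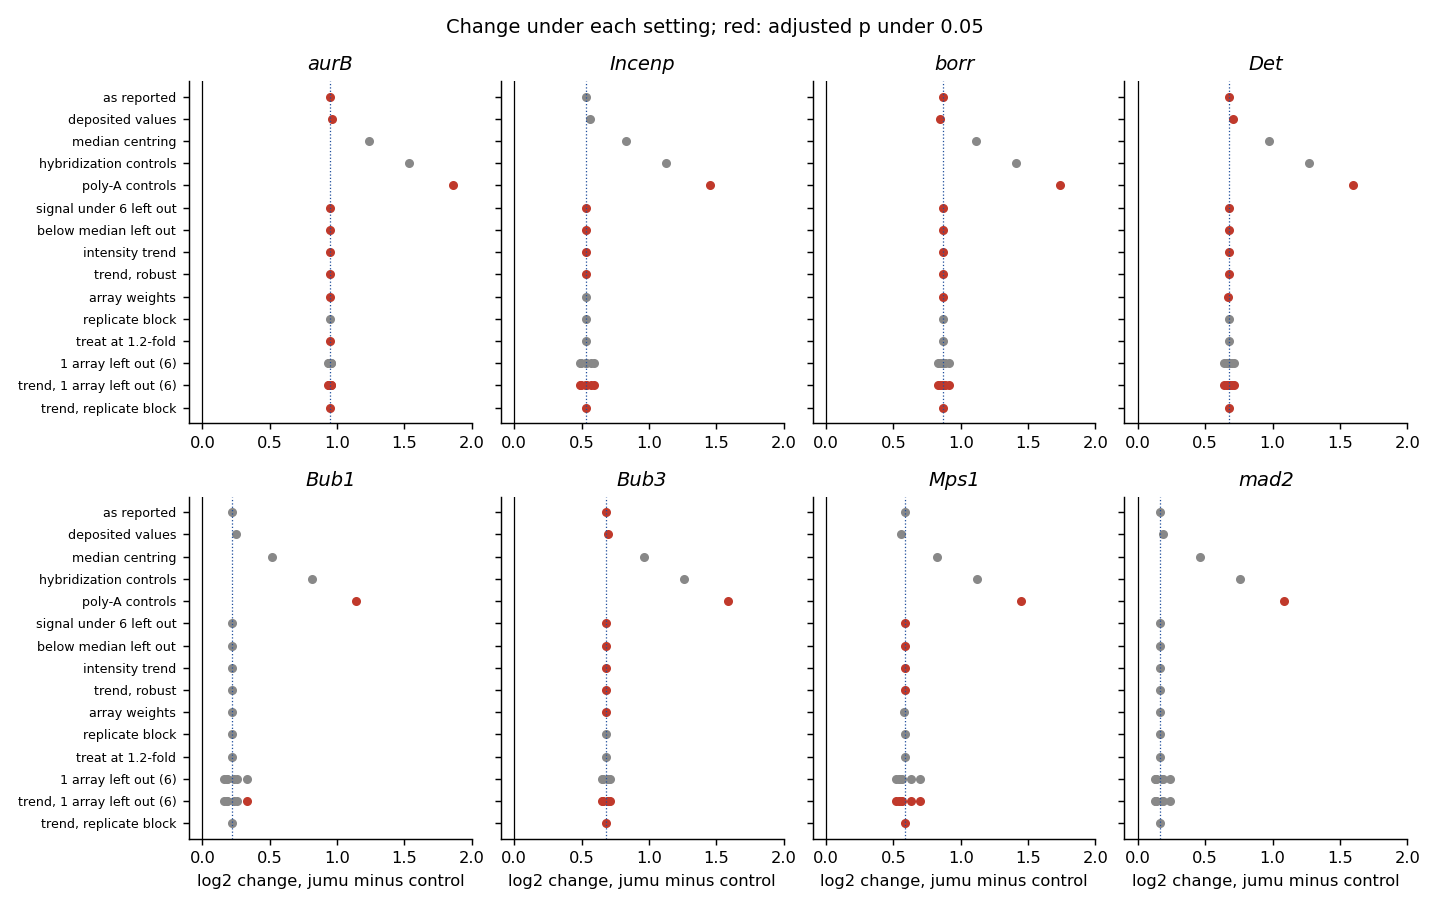
Log2 change, jumu minus control (horizontal axis), of each measured gene under the reported setting and every alternative (rows), red where the adjusted p is under 0.05 and grey otherwise; the dotted line marks the reported value. The points of every row are above 0, many rows repeat the reported value by construction, the median centring and spiked-in control rows lie to the right, and the rows with 1 array left out are red only with the intensity trend, in 5 to 7 of the genes.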

How the data were processed

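The Bioconductor package affy was used, per the submitters' processing notes; its version, background correction, normalization and probe summary are not stated there. The deposited values were taken as log2 signals per probe set, a base read from their range. Input was roughly 2 to 5 µg total RNA, per the labels. The array medians of the deposited values spanned 0.55, so quantile normalization was applied. Of 18952 probe sets 183 Affymetrix controls were left out; 13647 had 1 gene, 402 several and 4720 none in the annotation. Symbols were updated by gene ID with a RefSeq table (Release 6), matching 13544. No build is named, so no coordinates are given. Each gene was read on its probe set with the highest mean.

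limma 3.58.1 in R 4.3.3 (lmFit, eBayes, two-sided, no covariates) was run on 6 arrays with Benjamini-Hochberg adjustment over 18769 probe sets at 0.05. Its variance prior had 0.94 degrees of freedom. On simulated data the only condition set was that changes of bright probe sets came back at about the size put in. No condition was set on false calls, so the adjusted p was not checked in that way. The number of arrays limits precision. Members, lists and tests were chosen with earlier results of these data known. Named genes were the members, jumu, up to 6 genes of smallest and 2 of largest p in each list among those over a log2 signal of 6, and the 6 nearest profiles; other genes appear as markers, as genes near background, or, for fzr, by a choice made after its value was seen. Pairs planned with BubR1 and aurA could not be run, and Bub3 took the place of BubR1, a choice made after seeing the annotation. Deviations of same-numbered arrays from their group means correlated at -0.01, -0.00 and 0.05, so the numbers were not taken as pairs. The alternatives are named in the closing section.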

Additional observations from a re-analysis of the deposited data

How the results depend on the processing

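Of 24 alternatives 11 could move a member's change: 4 scalings, array weights and 6 with 1 array left out. The other 13 repeat the changes as reported or those with 1 array left out, and alter only the p. The 88 values of the 8 members over these 11 were positive; median centring and both spiked-in scalings move all probe sets upward alike. The count of members that rose (4 as reported) was 0 with median centring, with scaling to hybridization controls and with the replicate block, 8 with scaling to poly-A controls, 6 with probe sets under a log2 signal of 6 or below the median level left out, 6 with the intensity trend with or without robust estimation, 6 with the trend and replicate block together, and 1 (aurB) with limma's treat at 1.2-fold. It was 4 with deposited values and with array weights. With 1 array left out it was 0, and 5 to 7 with the trend. Where it was 0, 6 to 8 members had an unadjusted p under 0.05. Calls over all probe sets moved in the same way. Called higher were 36.3% of all probe sets with scaling to poly-A controls. It was 17.9% with probe sets under 6 left out, 13.2% with those below the median level left out and 8.22% with the trend. With the trend and 1 array left out it was 6.44% to 7.61%. The share was 0% with the replicate block and at most 0.112% with 1 array left out and no trend. For the kinetochore platform list (5) the count was 0 with median centring, hybridization controls, the replicate block and 1 array left out (11 to 14 at an unadjusted p under 0.05), 15 with poly-A controls, 13 without dim probe sets under 6, 12 without those below the median, 13 with the trend, 14 with robust estimation, 12 with trend and block, 3 with treat, and 11 to 13 with the trend and 1 array left out. For the APC/C and anaphase list (4) it was 0 in the same 4 cases and with treat (6 to 16 at an unadjusted p under 0.05), 17 with poly-A controls, 11 without dim probe sets under 6, 10 without those below the median, 11 with the trend, robust or with the block, and 9 to 12 with the trend and 1 array left out, where 1 gene was lower without jumu replicate 3 and otherwise 0. For the passenger partners (1) it was 0 in those 5 cases (3 to 7 at an unadjusted p under 0.05), 9 with poly-A controls, 2 with deposited values or array weights, 4 with either filter and the trend, robust or not, 5 with trend and block and 4 to 5 with the trend and 1 array left out; 1 partner was lower with the trend, robust or not, and without control replicate 2 with the trend, and otherwise 0. The trend with a left-out array or the block was added after seeing the data. In this balanced design the block leaves each change as it is. The cause of these changes was not tested.

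Over all probe sets 255 were higher and 264 lower as reported. With the replicate block both counts were 0. Leaving out probe sets under a log2 signal of 6 gave 1420 and 1510 of 7948. Leaving out those below the median level gave 1241 and 1339 of 9385. The counts were 20 and 0 with median centring, 31 and 0 with hybridization controls, 6805 and 119 with poly-A controls, and 1543 and 1553 with the trend. These 3 scalings put the median of all probe sets at 0.16, 0.46 and 0.78. The members lay 0.30 to 1.08 above it in each, as with deposited values. Each scaling shifts a whole array by a constant, so this distance is the same by construction and is no separate support. The 6 within-array pairs kept their direction with deposited values and with each array left out, which the choice of reference genes favours. Some shifts were close to no shift. Mps1 relative to Bub3 was at -0.007 without control replicate 2, and borr relative to aurB at -0.05 without jumu replicate 3. No gene had a second probe set among the members, so the mean over probe sets gave no separate value. Probe sets under a log2 signal of 6 had a median replicate SD of 1.17, against 0.20 from 6 to 9 and 0.09 from 9 to 12.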
